A study of Mus musculus with 6 samples.

Results

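The Lyz2hi myeloid cells are 136 cells of the DES uterus that the authors annotated as DES-Myeloid-Lyz2hi, and they were taken here by that annotation among DES cells that passed the authors' quality filter and have counts. They formed 1.40% of the 9701 annotated DES cells (exact 95% interval 1.18 to 1.66) and were 136 of the 48699 cells of the series. The label was used in the DES library only, and none of the 12253 annotated control cells carried it. They are described against the 9565 other annotated DES cells, which include the DES Myeloid cells, and against the cells annotated Myeloid, of which the DES library held 228 (2.35% of annotated cells, 2.06 to 2.67) and the control library 67 (0.547%, 0.424 to 0.694). Of the 9565 other annotated DES cells 5255 were epithelial and 3837 mesothelial, while only 5 were endothelial and 1 was stromal. Ratios to these cells therefore hardly cover stroma or vessels.

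The series compared uteri of CD-1 mice aged 12 months that had been injected under the skin on neonatal days 1 to 5 with the vehicle corn oil, here CO, or with diethylstilbestrol, here DES, a synthetic estrogen, at 1 mg/kg/day. The CO mice were taken in estrus, and the DES mice were in persistent estrus. Cells freed by trypsin and passed through filters came from 2 CO mice pooled into 1 library and from 4 DES mice pooled into 1 library. Visium sections, in which each spot can cover several cells, came from 2 CO and 2 DES mice, from areas cored after pathology review, for DES mice to take in adenocarcinoma. With 1 library per condition and mice that cannot be told apart within it, no test was made between groups of cells. Poisson intervals on levels and Clopper-Pearson intervals on shares are exact, at 95%, while the limit given for a count of 0 is 3 cells of the total, and all of these cover counting error only.

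Myeloid cells are the granulocytes, monocytes, macrophages and dendritic cells of the innate immune system. They kill microbes with lysozyme and oxidants, sense antibody-coated material through Fc receptors that signal by the adaptor Fcer1g, and call in other leukocytes with cytokines such as interleukin-1β. Macrophages also clear dying cells and lipid, and those loaded with lipid turn on lysosomal, fatty acid-binding and cholesterol export genes. In the uterus macrophages lie mainly in the stroma and muscle, and neutrophils enter with the estrous cycle.

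Of the 4 genes that mark these cells 3 were high and Il1b was low. Levels are in CPM, the usual unit in which the UMIs (counted RNA molecules) of a gene are added up over a group and scaled to a common total of all its UMIs. Lyz2, the lysozyme of macrophages and neutrophils, stood at 31833 CPM in Lyz2hi cells (31599 to 32068). It stood at 7881 CPM in DES Myeloid cells (7760 to 8004), 1889 CPM in CO Myeloid cells (1782 to 2001) and 131 CPM in the other annotated DES cells. In single cells Lyz2 ran from 2.98 to 842 UMIs per 10000 in Lyz2hi cells with a median of 315, and from 0 to 478 with a median of 48.2 in DES Myeloid cells. The 2 ranges overlapped, and every Lyz2hi cell held a Lyz2 UMI.

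The adaptor Tyrobp stood at 2458 CPM in Lyz2hi cells, 2788 CPM in DES Myeloid cells and 1246 CPM in CO Myeloid cells. Fcer1g, the Fc receptor γ chain, stood at 1847, 2729 and 2027 CPM in the same order. In the other annotated DES cells Tyrobp was at 38.1 CPM and Fcer1g at 32.2 CPM. Il1b, which encodes interleukin-1β, went against the marker list. It stood at 57.5 CPM in Lyz2hi cells (47.9 to 68.3), against 3.38 CPM in DES epithelial cells, 3.55 CPM in DES mesothelial cells, 4532 CPM in DES Myeloid cells (4440 to 4625) and 2225 CPM in CO Myeloid cells. All other annotated DES cells summed stood at 54.0 CPM, with 9243 of their 13184 Il1b UMIs in the Myeloid cells. Only 36 of the 136 Lyz2hi cells held an Il1b UMI, with at most 13.7 UMIs per 10000, whereas 193 of 228 DES Myeloid cells did, with up to 183. The level of Il1b was thus 78.9 times lower in Lyz2hi than in DES Myeloid cells (66.3 to 94.7).

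**Figure D1:**
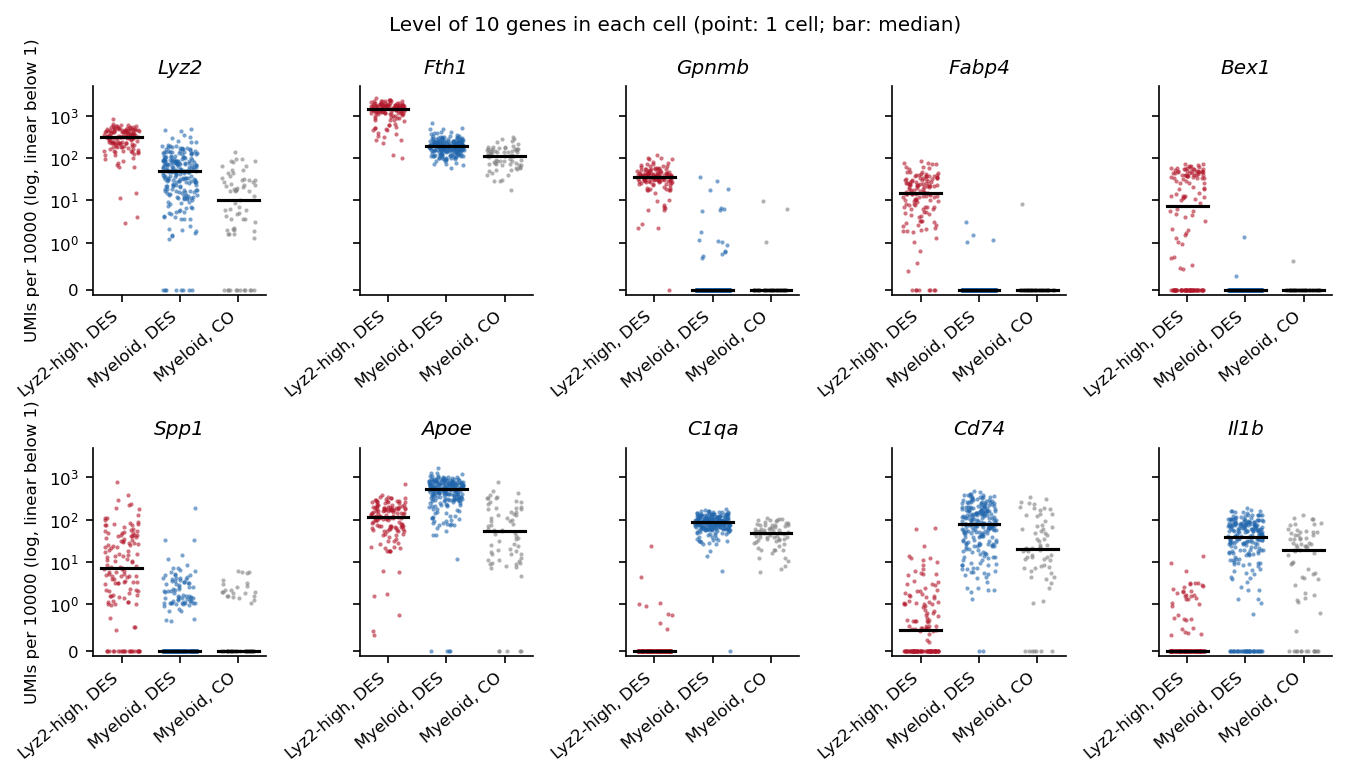
UMIs per 10000 of 10 genes in each Lyz2hi cell, DES Myeloid cell and CO Myeloid cell, on an axis that is logarithmic above 1 and linear below it, where each point is 1 cell and each bar the median of its group. Lyz2, Fth1, Gpnmb and Fabp4 lie highest in the Lyz2hi cells, while C1qa, Cd74 and Il1b lie at or near 0 in most of them.

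The median Lyz2hi cell held 15418.5 UMIs from 3213 genes (1016 to 51654 UMIs), and the median DES Myeloid cell 8647.5 UMIs from 2342.5 genes. Mitochondrial genes took a median of 3.88% of their UMIs, against 6.997% in DES Myeloid cells. Shares of cells with a UMI were therefore compared after thinning every cell to 2000 UMIs, which left out 3 Lyz2hi and 6 DES Myeloid cells. Lyz2 was then found in 98.5% of Lyz2hi cells (94.7 to 99.8), 211 of 222 DES Myeloid cells, 3.54% of DES mesothelial cells and 2.73% of DES epithelial cells. Il1b was found in 5.26% of Lyz2hi cells (2.14 to 10.5), 78.8% of DES Myeloid cells and 0.707% of DES mesothelial cells. The cells labelled Lymphocytes in the DES library are a mixed comparator, since Lyz2 stood at 8351 CPM and the neutrophil gene S100a8 at 2823 CPM in them. The 2 libraries shared 180 cell barcodes, of which 2 belonged to Lyz2hi cells.

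**Figure D2:**
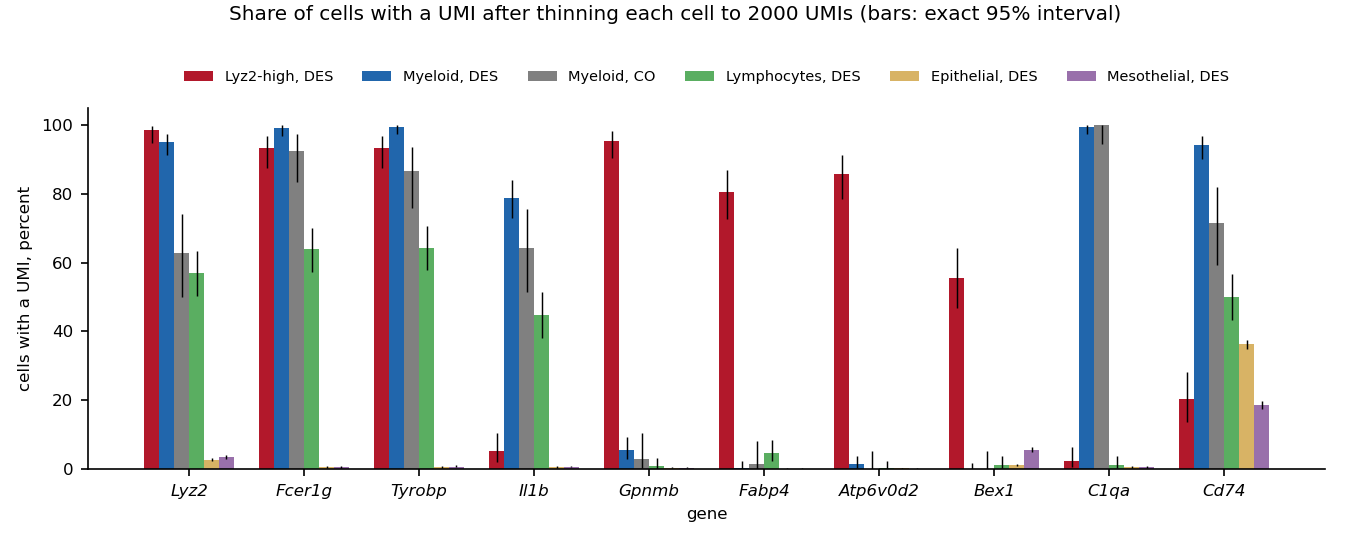
Percentage of cells with at least 1 UMI of 10 genes after each cell was thinned to 2000 UMIs, for Lyz2hi cells and 5 other annotated groups, with exact 95% intervals as thin bars. Gpnmb, Fabp4, Atp6v0d2 and Bex1 are found in 95.5%, 80.5%, 85.7% and 55.6% of Lyz2hi cells and in at most 5.61% of any other group, while C1qa is found in 2.26% of them.

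A single gene, Fth1, took 13.8% of all UMIs of the Lyz2hi cells. Fth1 encodes the heavy chain of ferritin, the protein shell that stores iron. Its share was 2.07% in DES Myeloid cells, 1.10% in CO Myeloid cells and 0.332% in the other annotated DES cells. In single Lyz2hi cells the share ran from 0.993% to 26.2% with a median of 14.6%, and in DES Myeloid cells from 0.594% to 6.73% with a median of 1.90%. A share of over 5%, a line drawn after the values were seen, was passed by 124 of 136 Lyz2hi cells and by 2 of 228 DES Myeloid cells. Ftl1, the light chain, was at 20207 CPM against 11223 CPM, and both chains together made up 15.8% and 3.19% of UMIs. Because CPM is relative to a total of which ferritin forms such a part, it lowers the ratios of all other genes to DES Myeloid cells by a common factor. Ferritin genes have close pseudogenes, and reads that match several copies could be missing from these values. With the 20 most abundant genes left out of both totals, every ratio to DES Myeloid cells was higher by 0.16 on the log2 scale.

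Lipid handling and lysosomal genes were among those that set Lyz2hi cells apart from the other annotated DES cells, which describes the label, since it was drawn from clusters of these same cells. Of the 3358 genes that reached 50 CPM in 1 of the groups or both, 354 (10.5%) were at least 4 times higher in Lyz2hi cells. The same held for 10 of 10 lipid handling genes, a list that takes in Spp1, and 12 of 13 lysosomal genes at that level. Fabp4, a fatty acid-binding protein of adipocytes and macrophages, stood at 2330 CPM (2267 to 2395) against 0.925 CPM. It was found in 128 of 136 cells, from 0 to 86.5 UMIs per 10000 with a median of 15.1. Fabp5, its relative, stood at 12048 CPM against 15.7 CPM and was found in every Lyz2hi cell.

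Gpnmb, a glycoprotein of lysosomes and the cell surface, stood at 3763 CPM (3683 to 3845) against 1.96 CPM and was found in 135 of the 136 cells. Atp6v0d2, a subunit of the proton pump that acidifies lysosomes, stood at 1177 CPM (1133 to 1223) against 1.26 CPM. Abcg1, which exports cholesterol, was at 426 CPM against 1.87 CPM. The secreted phosphoprotein Spp1 was at 5257 CPM against 10.6 CPM but was uneven, with a median of 7.03 and a maximum of 759 UMIs per 10000 and no UMI in 21 cells.

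Surface and secreted proteins filled most of the rest of the 15 leading genes. Itgax, the integrin CD11c of dendritic cells and some macrophages, stood at 231 CPM against 0.954 CPM. Il7r, a chain of the receptor for interleukin-7, stood at 234 CPM against 1.24 CPM, and the inhibitory receptor Cd300lf at 273 CPM against 1.40 CPM. Mmp12, the macrophage elastase, stood at 422 CPM against 2.01 CPM, with a UMI in 63 of the 136 cells. F7, the coagulation factor that binds tissue factor, stood at 248 CPM against 0.213 CPM. The amino acid transporter Slc7a2 (272 CPM against 0.597 CPM), Lhfpl2 (300 CPM against 1.35 CPM) and H2-M2, a nonclassical class I molecule (779 CPM against 1.72 CPM), completed the group with Lyz2 itself.

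Promoters of 4 of these genes are shown because Lyz2 gives the cells their name and Gpnmb, Itgax and Mmp12 are among the leading genes whose windows hold a searched motif. They were chosen after the matches were seen. The windows run from 250 bases before to 50 after the start in RefSeq on GRCm38.p6 and are written in the direction of the gene. The gene bodies lie at chr10:117277331-117282321 for Lyz2, chr6:49036546-49070929 for Gpnmb, chr7:128129547-128150657 for Itgax and chr9:7344381-7369499 for Mmp12 in the GENCODE annotation of GRCm38. Capitals mark TGANTCA, the site of AP-1 factors such as Fos and Jun, or GAGGAAGT and its reverse complement, a site of the myeloid factor PU.1.
Lyz2, chr10:117282223-117282522, minus strand, no searched motif: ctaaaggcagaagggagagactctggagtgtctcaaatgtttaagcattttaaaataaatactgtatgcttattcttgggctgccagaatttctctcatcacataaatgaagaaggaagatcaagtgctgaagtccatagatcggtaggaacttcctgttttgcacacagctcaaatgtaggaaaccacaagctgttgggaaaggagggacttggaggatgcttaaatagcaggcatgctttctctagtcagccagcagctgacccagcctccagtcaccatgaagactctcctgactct
Gpnmb, chr6:49036268-49036567, plus strand, AP-1 site after the start: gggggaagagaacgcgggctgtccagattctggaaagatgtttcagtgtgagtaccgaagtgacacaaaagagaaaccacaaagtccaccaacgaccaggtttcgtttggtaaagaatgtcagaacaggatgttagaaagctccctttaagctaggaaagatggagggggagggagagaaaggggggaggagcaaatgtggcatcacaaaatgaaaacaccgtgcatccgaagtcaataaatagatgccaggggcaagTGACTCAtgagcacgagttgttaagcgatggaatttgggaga
Itgax, chr7:128129300-128129599, plus strand, AP-1 site 56 bases before the start: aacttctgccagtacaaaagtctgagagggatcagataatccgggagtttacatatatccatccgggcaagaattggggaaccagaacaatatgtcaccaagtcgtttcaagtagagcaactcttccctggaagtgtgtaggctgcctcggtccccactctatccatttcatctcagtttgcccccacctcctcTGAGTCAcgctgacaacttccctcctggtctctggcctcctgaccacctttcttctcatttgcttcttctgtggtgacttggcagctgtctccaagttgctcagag
Mmp12, chr9:7344147-7344446, plus strand, PU.1 site 88 bases before the start: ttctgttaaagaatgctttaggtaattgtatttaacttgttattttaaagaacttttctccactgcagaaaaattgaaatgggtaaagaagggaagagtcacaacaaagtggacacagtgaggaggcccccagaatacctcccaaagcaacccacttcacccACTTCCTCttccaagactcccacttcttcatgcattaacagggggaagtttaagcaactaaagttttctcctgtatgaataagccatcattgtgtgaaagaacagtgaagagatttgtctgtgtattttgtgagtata
The Mmp12 window is that of 1 of 2 starts in the table. Of the 50 genes with the largest ratio of Lyz2hi to other annotated DES cells (at least 100 CPM in Lyz2hi cells), 35 matched the RefSeq table, with 45 windows. TGANTCA, searched on both strands, was in 12 of these (26.7%) and in 7.81% of all 32851 windows. GAGGAAGT was in 8 of them (17.8%) and in 3.20% of all, and the E-box CACGTG was in 1 (2.22%) and in 7.15%. Among the 43 windows of the 50 genes with the largest ratio to DES Myeloid cells TGANTCA was in 6.98%, GAGGAAGT in 6.98% and CACGTG in 9.30%, and among the 41 windows of the reverse list in 9.76%, 12.2% and 4.88%. These matches describe letters only. The windows of a gene with several starts overlap.

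Compared with the DES Myeloid cells, the Lyz2hi cells had Tyrobp and Fcer1g within 2 times and most MHC class II, chemokine, complement and inflammatory genes lower. Of 2759 genes at 50 CPM or more in 1 of them or both, 310 (11.2%) were at least 2 times higher in Lyz2hi cells and 504 (18.3%) at least 2 times lower. With the 20 most abundant genes left out of the totals, 3682 genes reached 50 CPM, of which 517 were higher and 501 lower, and the median over all genes turned from -0.13 to 0.10 on the log2 scale. With only Fth1 and Ftl1 left out, a setting added after the data were seen, 456 were higher and 412 lower. The counts of the lists below are to be read beside these percentages.

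Most lipid handling genes were higher. Of the list's 11 genes, which include the secreted phosphoprotein Spp1, 10 reached 50 CPM. Of these 7, Spp1 among them, were higher than in DES Myeloid cells and 1 was lower, with a median log2 ratio of 2.43. Fabp4 stood at 2330 CPM in Lyz2hi and 2.45 CPM in DES Myeloid cells, where 4 of 228 cells held a UMI, a ratio of 951 (407 to 2929). Fabp5 was 21.1 times higher (12048 against 571 CPM). Lpl, the lipoprotein lipase, stood at 1211 against 115 CPM, Plin2, which coats lipid droplets, at 628 against 239 CPM and the scavenger receptor Msr1 at 112 against 27.5 CPM. Apoe, which carries cholesterol out of macrophages, was the exception at 13026 CPM against 53103 CPM, 4.08 times lower, and through it the sum of the list was lower too, at 36504 against 55354 CPM. Trem2, a lipid-sensing receptor, stood at 1232 against 654 CPM, under the 2 times line. Outside the list, the fatty acid-sensing nuclear receptor Pparg stood at 69.1 CPM (58.6 to 80.9) against 8.83 CPM (5.23 to 13.9), a gene looked up after the others were seen.

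All 13 lysosomal genes reached 50 CPM, and 5 were higher and 1 lower, with a median of 0.47. Ctsl, the cysteine protease cathepsin L, stood at 8795 against 507 CPM, 17.3 times higher (16.3 to 18.5). Psap, the precursor of the saposins that help degrade sphingolipids, stood at 8800 against 3152 CPM, and Gpnmb at 3763 against 97.1 CPM. Lyz1 stood at 146 against 8.83 CPM, but its sequence is close to that of Lyz2, so that reads of these genes could be assigned to the wrong copy. The aspartic protease Ctsd (8503 against 5057 CPM), Ctss (3984 against 3340 CPM) and Cd68 (1009 against 726 CPM) lay within 2 times, and the legumain gene Lgmn was lower (545 against 1128 CPM), though within 2 times (a ratio of 0.541) with the 20 most abundant genes left out.

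The 15 genes with the largest ratios to DES Myeloid cells took in Fabp4, Fabp5, F7, Gpnmb, Atp6v0d2, Slc7a2 and the neutrophil gene S100a8 (164 against 2.45 CPM) beside the genes that follow. Bex1, a small protein best known from neurons, stood at 1965 CPM (1907 to 2024) in Lyz2hi cells from 87 of the 136 cells, and at 0.981 CPM in DES Myeloid cells from 2 UMIs, a ratio of 2004 with an interval of 554 to 16552. Mfge8, which bridges dying cells to phagocytes, stood at 1669 against 21.6 CPM, and Plpp3, a lipid phosphatase, at 307 against 3.92 CPM. Epas1, a hypoxia-inducible transcription factor, stood at 199 against 1.47 CPM, and Cd200, the ligand of an inhibitory receptor, at 242 against 5.39 CPM. Fstl1 (155 against 0.981 CPM), Fbxo32 (180 against 8.34 CPM) and Mcemp1 (145 against 6.86 CPM) followed. Most of these also stood lower in the other annotated DES cells, where Fstl1 was at 31.8 CPM and Mfge8 at 39.4 CPM.

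RNA of the genes for antigen presentation by MHC class II was low in Lyz2hi cells. All 6 genes of the list that reached 50 CPM were lower, with a median of -4.82. Cd74, the invariant chain, stood at 214 CPM (195 to 234) against 10969 CPM (10826 to 11114) in DES Myeloid and 4404 CPM in CO Myeloid cells, 51.3 times lower than in the former. H2-Aa stood at 118 against 3141 CPM, H2-Ab1 at 85.7 against 2638 CPM and H2-Eb1 at 34.6 against 1037 CPM. Cd74 was also at 530 CPM in the other annotated DES cells, above its level in Lyz2hi cells.

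Complement and chemokine genes were mostly lower as well. Of 9 complement genes 6 were lower and 1 was higher, with a median of -3.09. C1qa, a chain of C1q that marks tissue macrophages, stood at 63.7 CPM against 8780 CPM, 138 times lower (117 to 164). It had a UMI in 9 of 136 Lyz2hi cells, and 1 cell held 123 of the 142 UMIs. C1qb (21.5 against 5321 CPM) and C1qc (26.9 against 3484 CPM) were at similar distance, and the gene that was higher was Itgax (231 against 77.0 CPM). Of 12 chemokines 10 were lower and 1 was higher, with a median of -4.61. Ccl4 stood at 19.7 against 5646 CPM, Ccl3 at 61.9 against 1819 CPM, Cxcl2 at 31.0 against 2050 CPM and Ccl12 at 0.449 CPM from 1 UMI against 192 CPM. Ccl9 lay within 2 times (128 against 100.02 CPM), and the gene that was higher was Ccl6, a monocyte-attracting chemokine, at 3348 CPM (3272 to 3424) against 231 CPM (211 to 253) and found in 131 of 136 cells.

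Inflammatory cytokines, their regulators and immediate early genes formed a further low group. In the interleukin-1 and inflammatory list 10 of 14 genes were lower and 1 was higher, with a median of -2.40. Il1a stood at 92.5 against 472 CPM, Tnf at 14.4 against 700 CPM, the inflammasome sensor Nlrp3 at 26.03 against 197 CPM and the NF-κB inhibitor Nfkbia at 158 against 1545 CPM. Il18 was the gene that was higher (65.1 against 30.4 CPM). Of 12 immediate early and heat shock genes 11 were lower, with a median of -2.70. Fos stood at 290 against 2285 CPM, Zfp36 at 151 against 1338 CPM and Dusp1 at 135 against 990 CPM. Immediate early genes can be switched on by enzymatic dissociation, and its part here was not tested.

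Other macrophage identity genes were mostly lower. Of 11 macrophage markers 8 were lower and 1 was higher, with a median of -3.44. Adgre1, which encodes F4/80, stood at 40.8 against 443 CPM and Ms4a7 at 82.6 against 1977 CPM. Outside that list, the fractalkine receptor Cx3cr1 stood at 2.69 against 553 CPM and the actin-binding Aif1 at 9.87 against 993 CPM. Csf1r, the receptor for the macrophage growth factor, stood at 125 against 506 CPM. Mertk, a receptor for dying cells, was higher at 124 against 33.8 CPM. Csf2rb, the shared receptor chain for GM-CSF and interleukins 3 and 5, stood at 463 against 70.1 CPM. Of 12 genes shared by most myeloid cells 1, Lyz2, was higher and 3 were lower, with Laptm5, a lysosomal membrane protein of leukocytes, at 989 against 884 CPM. Among 11 Fc receptor and adaptor genes none was higher and 2 were lower, while with the 20 most abundant genes left out 1 of 12, Trem2, was higher at 2.11 times and 3 were lower. Fcgr1, the high-affinity receptor for immunoglobulin G, stood at 30.5 against 496 CPM, in 40 of 136 against 209 of 228 cells, with Fcgr3 at 583 against 380 CPM and the kinase Syk at 203 against 130 CPM. The oxidase subunits Cybb (919 against 642 CPM) and Cyba (3775 against 1707 CPM) were measured in both, while Ncf1 stood at 41.7 against 194 CPM.

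Other genes with the smallest ratios to DES Myeloid cells were surface receptors and a chemokine. The inhibitory receptor Cd72 stood at 1.80 against 539 CPM, the receptor C5ar1 for complement fragment C5a at 1.35 against 208 CPM from 3 UMIs, and the interferon-induced chemokine Cxcl10 at 1.80 against 277 CPM. Gpr34, a lysophospholipid receptor, had 1 UMI in Lyz2hi cells and 116 CPM in DES Myeloid cells, and Ms4a6b had 3 UMIs and 105.4 CPM. Fcrls and Ighm had no UMI in Lyz2hi cells, which with a floor of 3 UMIs over the group makes them at least 229 and 155 times lower.

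Transcription factors and other groups followed the same pattern in part. Spi1, which encodes PU.1, stood at 260 against 347 CPM, Cebpb at 1410 against 1269 CPM and Bhlhe40 at 184 against 76.5 CPM. Of 11 myeloid transcription factors 1 was higher and 6 were lower. The 3 chemokine receptors at 50 CPM and all 4 cell cycle genes were lower, with Mki67 at 6.28 against 50.01 CPM, and 11 of its 14 UMIs lay in 1 cell. In the glycolysis, hypoxia and iron list 4 of 11 were higher, among them Arg1 (85.7 against 3.43 CPM), the glucose transporter Slc2a1 (54.8 against 17.7 CPM) and Fth1 (138245 against 20672 CPM), and Hmox1 was lower (62.8 against 127 CPM), though within 2 times (a ratio of 0.554) with the 20 most abundant genes left out. Of 8 matrix and growth factor genes 3 were higher and 2 lower, with Vegfa at 73.2 against 22.6 CPM. Of 3 Toll-like receptor genes 2 were lower, and of 3 interferon-stimulated genes 1 was lower. Of 10 S100 and antimicrobial genes 5 were higher and none was lower, with S100a11 at 386 against 138 CPM and the protease inhibitor Slpi at 191 against 48.1 CPM.

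**Figure D3:**
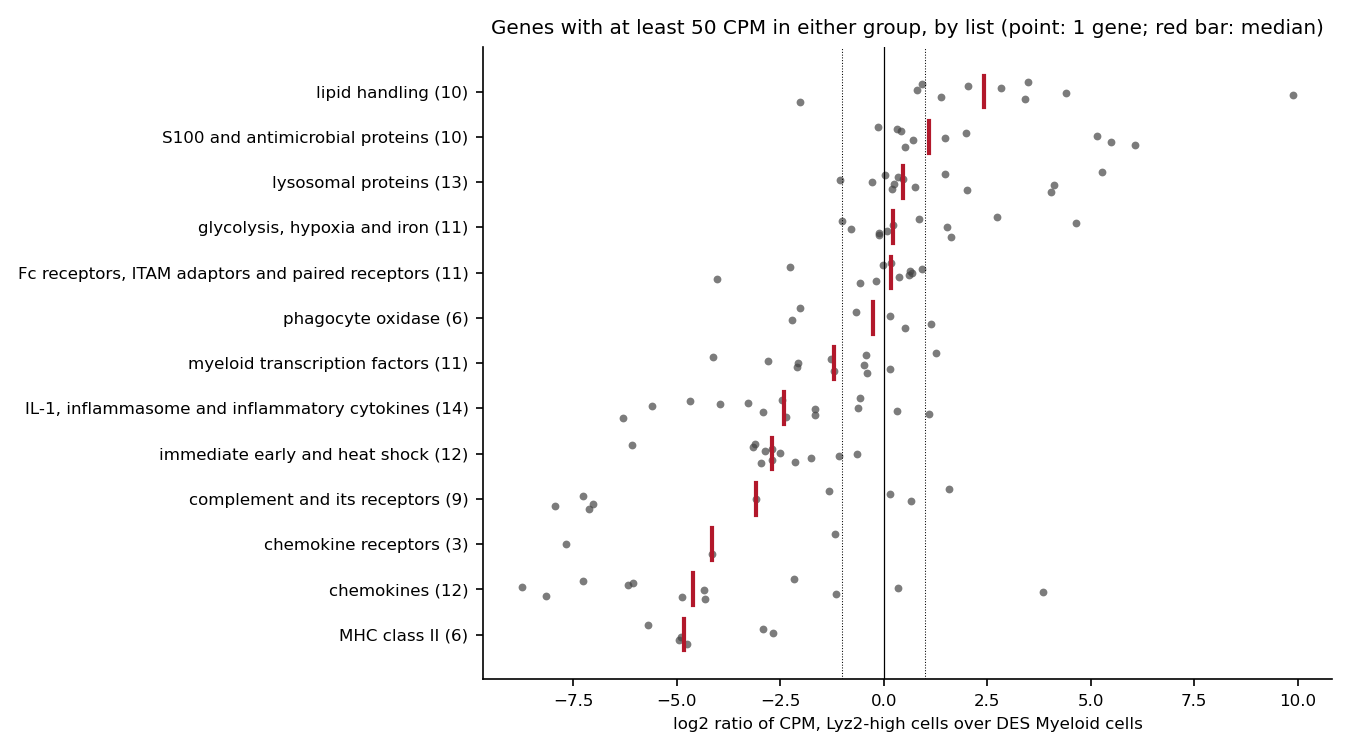
Log2 ratio of CPM in Lyz2hi cells to CPM in DES Myeloid cells for genes of 13 lists that reached 50 CPM in 1 group or both, where each point is 1 gene, the red bar is the median of the list and dotted lines mark a difference of 2 times. The medians run from -4.82 for MHC class II to 2.43 for lipid handling, beside -0.13 over all 2759 genes.

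The CO Myeloid cells also lacked most leading genes of the Lyz2hi cells. Lyz2 was 16.9 times higher in Lyz2hi than in CO Myeloid cells (15.9 to 17.9). In CO Myeloid cells Fabp4 stood at 6.49 CPM, Gpnmb at 22.7 CPM, Atp6v0d2 at 3.25 CPM from 2 UMIs and F7 at 0 of 616211 UMIs. Lpl and Cd36, a fatty acid uptake receptor, were higher in CO Myeloid cells (302 and 92.5 CPM) than in DES Myeloid cells (115 and 3.92 CPM), and Cd36 was at 39.5 CPM in Lyz2hi cells. The 67 CO cells were shallower, at 7161 UMIs in the median cell.

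Markers of other cell types were low and unevenly spread. Of 14 neutrophil markers 5 reached 50 CPM, with S100a8 at 164 CPM (148 to 182) against 2.45 CPM in DES Myeloid cells and in 86 of 136 cells. S100a9 was at 65.5 CPM, but 145 of its 146 UMIs lay in 1 cell, and Ngp and Camp were at 0. Of the monocyte list Chil3 had 110 of 117 UMIs in 1 cell and Fn1 121 of 137, and Ly6c2 had 1 UMI. Of the chemokines Ccl5 had 248 of 253 UMIs in 1 cell. The eosinophil-associated ribonucleases Ear1 (58.4 against 5.39 CPM) and Ear2 (98.7 against 5.39 CPM) were found, with Ear2 in 17 cells and Siglecf at 2.69 CPM. Of further genes of alveolar macrophages, looked up after the data were seen, Marco was at 0.898 CPM from 2 UMIs, Car4 and Cidec were at 0, Krt79 had 2 UMIs and Plet1 was at 111 against 45.1 CPM, in 50 cells, while Pparg is given above and Ear1, Ear2 and Siglecf belong to alveolar macrophages as well as to eosinophils.

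Among dendritic cell genes only Itgax reached 50 CPM, and Flt3, Xcr1, Clec9a and Ccr7 were at 0. No gene of the mast cell, T and NK cell, B and plasma cell, mesothelial, endothelial or smooth muscle lists reached 50 CPM in Lyz2hi or DES Myeloid cells. Of 3 red cell globin genes at 50 CPM 2 were lower than in DES Myeloid cells, and their list summed to 1099 and 2205 CPM, but with the 20 most abundant genes left out none of the 3 was past 2 times. The 6 epithelial markers summed to 528 CPM in Lyz2hi and 449 CPM in DES Myeloid cells, against 5469 CPM in the other annotated DES cells. The 7 stromal markers summed to 490 and 292 CPM, of which Dcn gave 375 and 212 CPM. In single Lyz2hi cells the epithelial sum ran from 0 to 76.3 UMIs per 10000 with a median of 3.01, and the neutrophil sum from 0 to 365.2 with a median of 3.36. Their part in the levels above was not tested.

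The 136 cells were not uniform. The 12 cells with at most 5% Fth1 had Fabp4 at 239 CPM, against 2487 CPM in the other 124, Mfge8 at 45.1 against 1790 CPM and Lyz2 at 17303 against 32920 CPM. Il1b was at 239 CPM in these 12 cells, from 4 of them, and 43.9 CPM in the rest. Markers of other cell types were higher in the same 12 cells, with the epithelial genes Wfdc2 at 1721 against 150 CPM, Krt8 at 451 against 47.8 CPM and Epcam at 271 against 28.5 CPM, the stromal gene Dcn at 1115 against 320 CPM and Lcn2 at 1476 against 81.5 CPM. Their part in these values was not tested. Scrublet, a doublet caller run here on the DES library, called 672 of 16312 cells (4.12%), among them 8 Lyz2hi cells and no DES Myeloid cell, and 5 of the 8 were among the 12 cells with little Fth1. Of the 672 calls, 623 lay in the 6611 DES cells with no cell type. The 9701 annotated DES cells thus held few calls, and 8 of 136 Lyz2hi cells is a larger share than theirs. Without the called cells Lyz2 stood at 33131 CPM and Il1b at 54.2 CPM.

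Bex1 divided the cells in another way, along a line drawn after its values were seen. At least 2 Bex1 UMIs were found in 82 cells, 1 in 5 cells and none in 49 cells, and median depth was 15896 UMIs in the first and 14299 UMIs in the last. Cells with Bex1 had Fabp4 at 2836 CPM and Plin2 at 734 CPM, against 1389 and 425 CPM in cells without. Wfdc17, a secreted whey acidic protein, stood at 2508 against 4979 CPM, though with medians of 9.25 and 11.8 UMIs per 10000, and Ccl6 at 2776 against 4227 CPM, with medians of 15.1 and 19.4. Lyz2 (30796 against 34073 CPM), Fth1 (140982 against 136539 CPM) and Gpnmb (3750 against 3870 CPM) differed little between them. Across the 136 cells Bex1 and Fabp4, each per 10000 UMIs, had a Spearman correlation of 0.283, a description over cells of 1 library that share their total. The correlation of Bex1 was lower with Ctsl (0.251), Mfge8 (0.189) and F7 (0.105), and negative with Spp1 (-0.086).

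Cells that carry some of the same genes were also found outside the annotation. Lyz2, Fcer1g and Tyrobp together do not single out Lyz2hi cells, since at least 1 UMI of each was held by 133 of the 136 Lyz2hi cells, 219 of 228 DES Myeloid cells, 129 of 239 DES Lymphocytes and 55 of 67 CO Myeloid cells. Of the 6611 DES cells with no cell type, none of which passed the authors' quality filter, 389 did so, at a median of 1337 UMIs. At least 2 UMIs each of Fabp4 and Gpnmb, a rule set after the values were seen, were held by 121 Lyz2hi cells, 28 DES cells with no cell type, 2 DES epithelial cells, 1 CO Myeloid cell and 1 CO stromal cell. None of the 228 DES Myeloid cells met this rule, nor did any of the 20134 CO cells with no cell type, which allows a share of up to 0.0149%.

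The Visium sections took no part in the annotation, so levels of the Lyz2hi genes were tested there between DES and CO with edgeR's quasi-likelihood test and Benjamini-Hochberg adjustment over 14098 genes. The sections held 9117099 to 12506177 UMIs in 1357 to 1834 spots, and all 4 lay on 1 slide. The paper reports a large tissue fold in CO B and limited cluster identification in DES B. Its authors therefore used 1 section per group for most of their work, while all 4 are used here. In whole sections fewer cells of a type and less RNA per cell cannot be told apart. An exact test of 2 sections against 2 cannot go below p = 0.33, so the adjusted p-values below depend on edgeR's estimate of spread, which borrows from all genes.

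The CO sections A and B held Lyz2 at 121 and 321 CPM and the DES sections A and B at 1500 and 738 CPM, a log2 difference of 2.13 ± 0.57 (SE). Both DES sections lay above both CO sections, but the difference did not pass (edgeR, adjusted p = 0.107), while DESeq2 gave an adjusted p of 0.000326. Tyrobp stood at 82.8, 149, 312 and 199 CPM in the same order (0.93 ± 0.35, edgeR, adjusted p = 0.195), again with both DES sections on top. Fcer1g stood at 52.4, 85.5, 134 and 84.9 CPM, with the CO B and DES B sections almost level (0.46 ± 0.32, edgeR, adjusted p = 0.452). Il1b stood at 2.24, 0.816, 43.9 and 6.78 CPM (3.78 ± 1.04, edgeR, adjusted p = 0.113, DESeq2 0.000168), and its log2 difference was 1.93 without DES A and 4.73 without CO A. Without section CO B, Lyz2 and Tyrobp passed, at log2 differences of 2.97 and 1.38.

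Of the 50 genes with the largest ratio of Lyz2hi to other annotated DES cells, 48 could be tested in whole sections, 6 rose and 1 fell, while 2.67% of all genes rose and 2.63% fell. Their median log2 difference was 1.33, beside -0.01 over all genes, and 37 of the 48 had both DES sections above both CO sections, as 43.8% of all genes did. H2-M2 and Osm had too few counts to be tested. The list is ranked against mostly epithelial and mesothelial cells, so it also holds genes shared with DES Myeloid cells. Tyrobp, Cybb and Fcgr3 lay within 2 times of their levels there. With the 20 most abundant genes left out, log2 ratios to DES Myeloid cells were 1.59 for Mmp12, 1.75 for Itgax, 3.34 for Il7r and 4.02 for Ccl6. Whether the rises below come from Lyz2hi cells was not tested. Mmp12 rose most, from 0.160 and 0.181 CPM in CO A and CO B to 179 and 31.3 CPM in DES A and DES B (8.95 ± 1.28, edgeR, adjusted p = 0.0322). Its CO values rest on 2 UMIs in each section, so that its size depends on the counts added by the fit, and its log2 difference was 7.25 without DES A and 9.70 without DES B. Itgax rose from 3.28 and 3.35 CPM to 51.0 and 22.6 CPM (3.25 ± 0.44, edgeR, adjusted p = 0.0308), and its log2 difference was 2.57 without DES A. Il7r rose from 0.480 and 0.544 CPM to 4.83 and 5.26 CPM (3.07 ± 0.42, edgeR, adjusted p = 0.0304).

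Ccl6 rose from 17.4 and 43.5 CPM (CO A, CO B) to 215 and 265 CPM (DES A, DES B), a log2 difference of 2.78 ± 0.47 (edgeR, adjusted p = 0.0438), which was 3.55 without CO B. Bcl2a1a, a survival factor of leukocytes, rose from 1.28 and 1.27 to 11.1 and 5.87 CPM (edgeR, adjusted p = 0.0473), though near-identical copies of it exist between which reads can be split. Itgb2, the β chain of leukocyte integrins, rose from 7.84 and 8.88 to 43.5 and 24.3 CPM (edgeR, adjusted p = 0.0488). Sdc3, a syndecan, fell from 94.3 and 101 to 42.3 and 46.0 CPM (-1.35 ± 0.17, edgeR, adjusted p = 0.0272). For these genes the DES and CO sections did not overlap. By CPM, which lacks the scaling between sections used in the fit, this was common. Both DES sections lay above both CO sections for 6172 of 14098 genes and below for 2518.

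Several leading genes of the cells did not pass in the sections. Gpnmb stood at 2.72, 27.8, 182 and 137 CPM in CO A, CO B, DES A and DES B (3.20 ± 1.00, edgeR, adjusted p = 0.142) and Spp1 at 86.8, 15.5, 562 and 128 CPM (edgeR, adjusted p = 0.235). Fabp4 stood at 10.0, 25.1, 30.7 and 15.4 CPM (0.19 ± 0.53, edgeR, adjusted p = 0.876), with the CO and DES sections overlapping. Fth1 stood at 3236, 4030, 3704 and 3093 CPM, also overlapping (-0.30 ± 0.21, edgeR, adjusted p = 0.451).

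**Figure D4:**
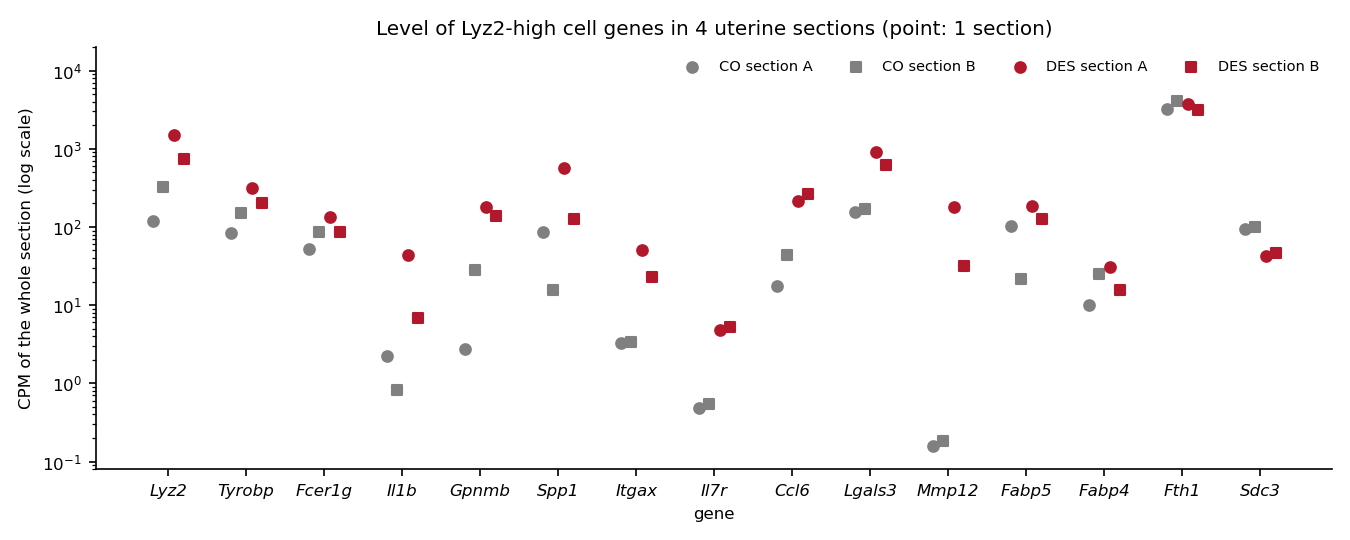
CPM of 15 genes in each whole section on a log axis, where each point is 1 section, grey is CO, red is DES, circles are section A and squares section B. Mmp12, Itgax, Il7r, Ccl6 and Lgals3 lie higher in both DES sections, Sdc3 lies lower, and Fabp4 and Fth1 overlap.

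The lists that separate Lyz2hi from DES Myeloid cells were counted in the same fit. Of the 50 genes with the largest ratio of Lyz2hi to DES Myeloid cells (at least 100 CPM in Lyz2hi cells), all were tested, 3 rose and 1 fell, while 2.67% of all genes rose and 2.63% fell. The median was 0.43, beside -0.01 over all genes. Both DES sections lay above both CO sections for 30 of the 50 and below for 7, while 43.8% of all genes had both DES sections above. Those that rose were Ccl6, Il7r and Lgals3, a galectin, which went from 154 and 168 CPM in CO to 922 and 619 CPM in DES (2.05 ± 0.24, edgeR, adjusted p = 0.0242). Hpse, heparanase, fell from 14.6 and 17.2 to 5.37 and 7.29 CPM (edgeR, adjusted p = 0.0496). Of the 50 genes with the largest ratio the other way, 49 were tested and 2 rose, with a median of 0.50, beside the same shares of all genes. Both DES sections lay above both CO sections for 31 of the 49 and below for 3. The 2 that rose were Ighm, the immunoglobulin μ chain, from 14.8 and 29.1 to 214 and 197 CPM (edgeR, adjusted p = 0.0241), and the chemokine Ccl3, from 0.800 and 0.906 to 9.76 and 5.67 CPM (edgeR, adjusted p = 0.0351). Whether these lists differ from each other in the sections was not tested.

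Of the 11 members called, Mmp12 alone kept its call with each section left out, and the other 10 lost it without DES A and also without DES B. Leaving out a DES section left 14 (without DES A) or 3 (without DES B) calls among all genes, against 747 with all sections and 2819 and 2336 without CO A and CO B. The 7 calls among the genes of Lyz2hi over other DES cells became 14 without CO A, 23 without CO B and 1 without either DES section. The 11 lipid handling genes, Spp1 included, summed to 817 and 1476 CPM in CO A and CO B and to 4438 and 3028 CPM in DES A and DES B. None of the 11 was called by edgeR, 3 had an unadjusted p under 0.05, as 24.4% of all genes did, and DESeq2 called 3, where it called 12.7% of all genes. Apoe, which is lower in Lyz2hi than in DES Myeloid cells, gave 449, 1153, 3339 and 2585 CPM of these sums. Marker sums of other cells moved as well. The macrophage markers summed to 902 and 1890 CPM in CO A and CO B and to 4428 and 3401 CPM in DES A and DES B, but to 452 and 737 against 1089 and 815 CPM without Apoe, which both lists hold, and none of the 12 was called by edgeR. The B and plasma cell markers to 231 and 484 against 3240 and 6079 CPM. The smooth muscle markers summed to 9795 and 11462 against 2860 and 3261 CPM, with 4 of 4 called lower, the stromal markers to 4984 and 6118 against 2953 and 2033 CPM, with 3 of 7 called lower, and the basal epithelial markers to 3.36 and 160 against 9526 and 5644 CPM. The neutrophil markers summed to 12099, 1635, 5898 and 2765 CPM in that order and overlapped. The part of these cells in the section values was not tested.

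In the stromal spots alone, 1 cluster per section with 101 to 211 spots, 0.796% of 8914 genes rose and 0.673% fell, 13.4% had an unadjusted p under 0.05 and 1.17% rose with DESeq2. Of the 50 genes of Lyz2hi over other DES cells, 29 were tested and none was called (edgeR, 2 at an unadjusted p under 0.05, and none with DESeq2). With no filter 48 were tested and 2 rose. Of all 16195 genes tested with no filter 368 rose and 346 fell, which stands beside the later no-filter counts too. The median log2 difference of this list was 0.21, and it ran from 0.01 without DES A to 0.59 without CO B. Of the 50 over DES Myeloid cells, 39 were tested and Hpse fell, from 39.4 and 35.8 to 1.97 and 5.77 CPM (-3.63 ± 0.62, edgeR, adjusted p = 0.0367). No gene of this list was called with CO B or DES A left out, and with no filter 2 rose and 3 fell. Of the 50 that run the other way, 29 were tested and none was called by edgeR, 10 at an unadjusted p under 0.05, and 4 rose with DESeq2. With no filter 49 of these were tested, and 5 rose and 2 fell by edgeR. The median log2 difference of this list was 0.25, and it ran from -0.12 without DES A to 0.90 without CO B. Lyz2 stood at 346, 715, 1242 and 580 CPM in the stroma of CO A, CO B, DES A and DES B, where the groups overlapped. Markers of other cells differed in the same spots, with the smooth muscle markers at 731 and 633 CPM in CO A and CO B and 2739 and 7837 CPM in DES A and DES B, 2 of 4 called higher, and the basal epithelial markers at 0 and 89.97 against 7058 and 1998 CPM, 2 of 3 called higher. The B and plasma cell markers summed to 14.3 and 2000 against 7835 and 38215 CPM there, and 8 of 10 interferon-stimulated genes were called lower. Their part in the stromal values was not tested.

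Lyz2 was unevenly spread over the DES A section. Its spots fell into 10 clusters made by the authors, and cluster 8, a region of 61 spots singled out after its values were seen, held Lyz2 at 7084 CPM (6895 to 7277), while the other clusters of DES A ran from 136 to 1272 CPM. The highest cluster of DES B stood at 1920 CPM, that of CO A at 509 CPM and that of CO B at 1005 CPM. The same region held Spp1 at 3720 CPM, Mmp12 at 1207 CPM, Fabp5 at 823 CPM, Gpnmb at 723 CPM and Itgax at 273 CPM, and each of Spp1, Mmp12 and Gpnmb had its highest level of all 40 clusters there. Mmp12 and Itgax stood higher in this region than in the Lyz2hi cells themselves, while Lyz2, Spp1, Fabp5 and Gpnmb stood lower. The region also held genes that were low in Lyz2hi cells, with S100a9 at 1341 CPM, Cd74 at 1192 CPM, C1qa at 482 CPM and Il1b at 382 CPM. Fabp4 stood at 32.0 CPM there, and its highest level was 4982 CPM in cluster 9 of DES A, of 9 spots. A spot covers several cells, and which cells gave these levels was not tested.

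**Figure D5:**
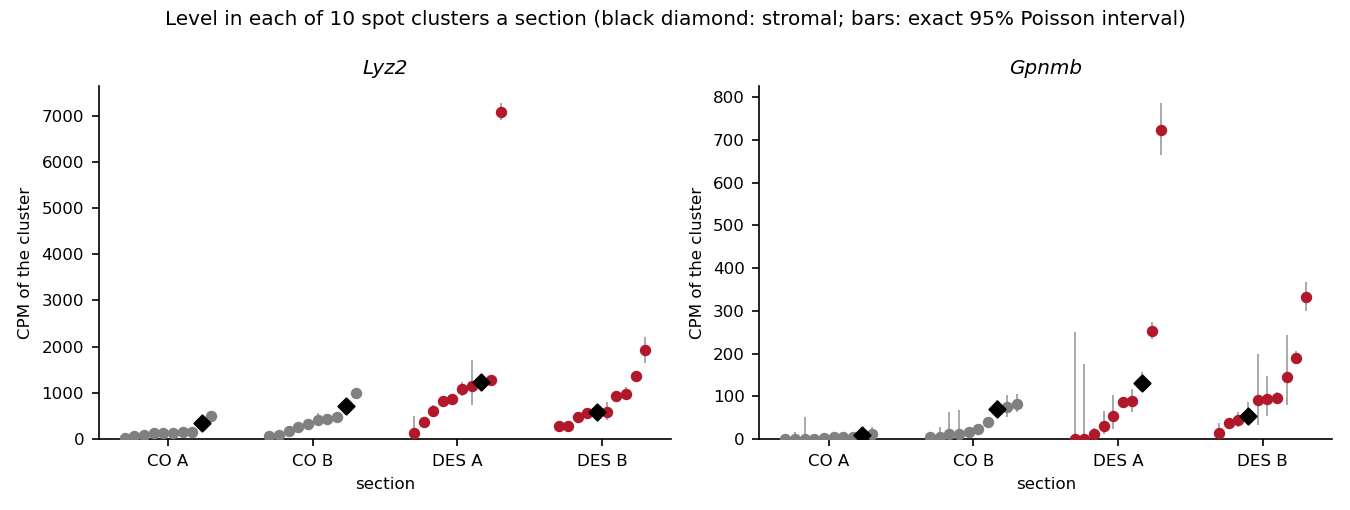
CPM of Lyz2 and Gpnmb in each of the 10 spot clusters of each section, with exact 95% Poisson intervals as bars, where grey points are CO, red points DES and black diamonds the stromal cluster. Cluster 8 of DES A stands highest for both genes, at 7084 CPM for Lyz2 and 723 CPM for Gpnmb.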

How the data were processed

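Cells were counted in 1 CO and 1 DES library and spots in 4 Visium sections. The deposited values are raw UMI counts per gene and cell or spot, made by the authors with Cell Ranger 3.0.1 and Space Ranger 1.2.2 (with bcl2fastq 2.20.0.422, per the submitters' processing notes) on mm10. The paper reports that potential doublets were removed with scran after a look at swapped barcodes with DropletUtils. The deposited counts still include cells that failed the authors' quality filter, such as the 6611 DES cells with no cell type. The paper does not say whether potential doublets are among them. Cell types and spot clusters are the authors' own. The authors' fold changes in supplementary tables were not used.

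From these counts, CPM was computed here on UMIs summed per group of cells, with Python 3.11.15, scipy 1.17.1 and scanpy 1.11.5 (Scrublet). Ratios with 0 UMIs used a floor of 3 UMIs over the group. Cells were thinned to 2000 UMIs with a fixed seed. Sections were summed over spots and tested with edgeR 4.0.16 in R 4.3.3 (TMM, filterByExpr, quasi-likelihood test, Benjamini-Hochberg at 0.05), with DESeq2 1.42.0 as an alternative. Sections are single mice, and the tests set the difference between groups against a spread between sections that is estimated with the help of all genes. Mouse, cored area and section quality cannot be told apart in that spread. No column of another sample was present.

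The members and lists were chosen with earlier results of these data known. Genes named were the 4 markers, the 15 with the largest ratio to other annotated DES cells (at least 200 CPM), the 15 largest and 15 smallest ratios to DES Myeloid cells (at least 100 CPM in the higher group), list members with the largest or smallest ratio or the highest level, and members called in the sections. Further list members serve as examples chosen after their values were seen. Alternatives were other totals, CPM minimums, thinning depths, cell filters, list sizes, count filters, size factors and each section left out. Promoters are from RefSeq on GRCm38.p6. Lists and counts describe the label, since cells were clustered on the same genes.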

Additional observations from a re-analysis of the deposited data

Results flagged for a closer look

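Among DES cells with no cell type, 28 of 6611 held at least 2 UMIs each of Fabp4 and Gpnmb (0.424%, exact 95% interval 0.282 to 0.612), while 0 of 20134 CO cells with no cell type did. The result is given here because these cells are outside the annotated groups compared and the share is above its level in the control library. These 28 cells had a median of 20825.5 UMIs and 6.25% mitochondrial UMIs. Lyz2 stood at 13468 CPM in them, Fth1 at 53529 CPM and Fabp5 at 4447 CPM, between the levels in Lyz2hi and in DES Myeloid cells. Gpnmb (1494 CPM) and Fabp4 (856 CPM) are the genes of the rule that picked the cells. Apoe at 5948 CPM, C1qa at 23.0 CPM and Il1b at 23.0 CPM stood below their levels in both groups. The 28 cells also held the epithelial gene Wfdc2 at 1975 CPM and the stromal gene Dcn at 1137 CPM. None of the 28 had passed the authors' quality filter, and Scrublet called 11 of them as doublets, against 623 of all 6611.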

How the results depend on the processing

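Counting all DES cells lowered the share of Lyz2hi cells to 0.834%. Lyz2, Fcer1g and Tyrobp stood at 31558, 1767 and 2358 CPM as means over cells, 33131, 1916 and 2557 CPM without Scrublet doublets, and 46734, 2712 and 3609 CPM (Il1b 84.3 CPM) with the 20 most abundant genes left out of the total. At 1000, 3000 and all UMIs per cell Fcer1g was found in 80.9%, 96.9% and 98.5% of Lyz2hi cells and Tyrobp in 86.0%, 98.5% and 99.3%. At 3000 and all UMIs Lyz2 was found in 100% of them at both depths and Il1b in 11.5% and 26.5%. At 20 CPM 552 genes were higher than in other DES cells, 575 higher and 907 lower than in DES Myeloid cells, at 200 CPM 131, 91 and 171, and without the 20 most abundant genes 517 were higher than in DES Myeloid cells. With 2 UMIs of each marker 211 DES cells with no cell type remained of 389.

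In whole sections DESeq2 called 1791 genes, 19 of Lyz2hi over other DES cells, 17 over DES Myeloid cells and 8 of the reverse list. Lists of 25 genes gave 4, 1 and 1 calls and lists of 100 genes 11, 9 and 8. With no filter beyond 1 count the reverse list had 5 calls, where 863 of all 19821 genes were called. With each section left out, 3 to 2819 genes were called, with 1 to 23, 0 to 20 and 0 to 15 members of the lists. In stromal spots 714 were called with no filter and 40 to 357 with each section left out, where an arm of 1 section is assumed to vary like the other. Under the total without the 20 most abundant genes the median ratio to DES Myeloid cells over all genes turned from -0.13 to 0.10 (log2). In stromal spots the median log2 difference of the reverse list turned from 0.25 to -0.12 without DES A, and that of Lyz2hi over DES Myeloid from 0.07 to -0.01 with 25 genes and -0.03 with 100 genes. The causes were not tested. No paired analysis was possible because the section letters do not mark a shared animal, litter or day. With 4 sections, large differences with a wide spread could be missed.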
